A study of Mus musculus with 12 samples.

Results

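The genes described here are 9 transcription factors that set up or maintain macrophage identity: Spi1, Cebpa, Cebpb, Runx1, Irf8, Irf5, Maf, Bhlhe40 and Bhlhe41. They were chosen by gene symbol, and all 9 were among the 12339 genes of the deposited count table. RNA was sequenced from macrophages that thioglycolate, an irritant, had drawn into the peritoneum of mice. Every mouse, chow controls included, had received AAV8PCSK9 at 8 weeks of age, a viral vector that makes hepatocytes lose the LDL receptor. The mice were WT or of a line labelled meKO, read here from the series title as a myeloid knockout of protein kinase C epsilon (gene Prkce). The labels do not name the recombinase that removes the gene. They ate chow or a high-fat Western diet (HFD), and macrophages were taken 4 weeks later. Each combination of genotype and diet (WT chow, WT HFD, meKO chow, meKO HFD) has 3 libraries. The labels describe 8 animals per genotype, 4 of them on HFD, and the 12 libraries carry separate library names. Where these are not separate animals, the p-values cover only the spread between libraries.

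PU.1, the ETS factor encoded by Spi1, opens myeloid enhancers and is needed for macrophages to form. The C/EBP factors and RUNX1 work with it during myeloid differentiation, and IRF8, which binds many sites in complex with PU.1, directs progenitors toward monocytes and dendritic cells. In mature cells MAF, a bZIP factor, restrains self-renewal and supports genes of resident and alternatively activated macrophages, while IRF5 drives inflammatory cytokine genes downstream of Toll-like receptors. BHLHE40 and BHLHE41 are repressors that bind E-boxes, and macrophages of the body cavities and the lung depend on them for their identity and self-renewal.

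Promoter windows, from 250 bases before to 50 after an annotated start in RefSeq on GRCm38.p6, were given for 6 of the 9 genes: Cebpa, Cebpb, Runx1, Irf8, Irf5 and Bhlhe41. They were searched on both strands for letters that match binding motifs of the BHLHE, PU.1, C/EBP and RUNX factors. These were the E-box CACGTG, the PU-box GAGGAAG, the C/EBP palindrome TTGCGCAA and the RUNX motif TGTGGTT. No motif of the IRF factors or of MAF was searched. None of the motifs overlapped another in these windows. Of the 8 windows, 2 held an E-box (Bhlhe41 and the distal start of Runx1), against 7.15% of all 32851 windows. The RUNX motif lay in 1 of the 8, the distal Runx1 window, against 5.27% of all windows. The PU-box and the C/EBP palindrome were in none of the 8, against 13.6% and 0.183%. A match is a description of the sequence and no measure of binding. The sequences below are shown because they hold letters that match the motif of the gene's own product. The first is the stretch before the Bhlhe41 start (chr6:145865421-145865670, minus strand) with the E-box in capitals, beginning 153 bases before the start. The second lies 28 bases after the distal Runx1 start (chr16:92826033-92826047, minus strand). Both copies of the RUNX motif, read here as its reverse complement, are in capitals. Both starts are those of RefSeq. The gene spans given below are from GENCODE and begin further upstream. That of Bhlhe41 begins at chr6:145865558, inside the first stretch, and that of Runx1 at chr16:92826149.
Bhlhe41 promoter: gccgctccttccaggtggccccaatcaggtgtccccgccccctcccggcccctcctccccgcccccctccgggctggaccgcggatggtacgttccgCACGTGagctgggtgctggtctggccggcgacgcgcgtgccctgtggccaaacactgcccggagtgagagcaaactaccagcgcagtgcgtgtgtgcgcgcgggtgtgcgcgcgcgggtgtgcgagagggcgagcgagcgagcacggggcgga
Runx1 tandem site: AACCACAgAACCACA

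Library totals ran from 25844958 to 37282772 counts. Prkce, read as a check of the genotype labels, was at 2.01 to 4.44 CPM (library-scaled counts, with TMM factors) in the WT libraries and at 0.950 to 1.78 CPM in the meKO libraries, from 25 to 151 counts. WT chow replicates 1 and 2 were the highest, at 4.27 and 4.44 CPM. In the edgeR test Prkce was not called for genotype on chow (adjusted p = 0.0794), on HFD (adjusted p = 0.989) or averaged over diets (adjusted p = 0.0588). All 8 general macrophage markers were present. Among them Lyz2, which encodes lysozyme, stood at 69.3 CPM in meKO chow replicate 2 and at 16293 to 21309 CPM in the other meKO libraries, all below the 30482 to 53835 CPM of the WT libraries. Without that library, 0 of the 9 genes were called for diet in meKO or genotype on chow, as with it (0.105% and 0.0324% of all genes were called). For diet averaged over genotypes, 3 were then higher and 3 lower, against 3 and 4 with it (27.4% of all genes). For genotype averaged over diets, 0 were called, against 1 with it (0.138% of all genes). Some libraries also gave relatively more counts to long genes. Over 11532 genes, Spearman's rho between a library's deviation and the union length of a gene's exons reached 0.53 for WT chow replicate 1 and 0.58 for replicate 2, against -0.04 for replicate 3 and between -0.39 and 0.11 in the other 9 libraries. Fold changes carried the same trend: their rho with exon length was -0.48 for diet in WT, -0.28 for diet in meKO, -0.54 for genotype on chow and -0.23 for genotype on HFD. A correction for exon length and GC content was therefore run beside the test, after which these rho lay between -0.04 and 0.01.

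Levels were first compared between the genes per kilobase of exon. The length used was the union of exons over all transcripts. The longest transcript has 5861 of these 12025 bases for Runx1 and 3113 of 4705 for Bhlhe40. It has 6133 of 6720 for Bhlhe41 and 2626 of 2636 for Cebpa. The order of these genes and the range of levels therefore depend on the length chosen, and other lengths were not tested. Spi1 was the most abundant, at 110 ± 14.7 CPM per kb (mean and SD over the 12 libraries), above 96.7% of the genes with a known length. Irf5 followed at 74.9 ± 8.56 and Cebpa at 74.0 ± 8.68 CPM per kb, and these could not be ordered, since Irf5 was the higher in 6 of 12 libraries. Bhlhe40 stood at 54.7 ± 6.32 and Cebpb at 43.7 ± 11.7 CPM per kb, with Bhlhe40 the higher in 8 of 12 libraries. Irf8 at 14.1 ± 3.24 and Maf at 10.4 ± 3.29 CPM per kb kept their order in 12 of 12 libraries. Bhlhe41 at 2.15 ± 0.552 and Runx1 at 2.11 ± 0.446 CPM per kb were the least abundant, each the higher in 6 libraries, and lay above only 34.2% and 33.8% of genes. The remaining neighbours in this order, Spi1 over Irf5, Cebpa over Bhlhe40, Cebpb over Irf8 and Maf over Bhlhe41, held in all 12 libraries. From Spi1 to Runx1 the mean level per length fell 52.2-fold. Across libraries, the highest library was 2.68 times the lowest for Maf and 2.48 times for Cebpb, but 1.42 times for Irf5.

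**Figure D1:**
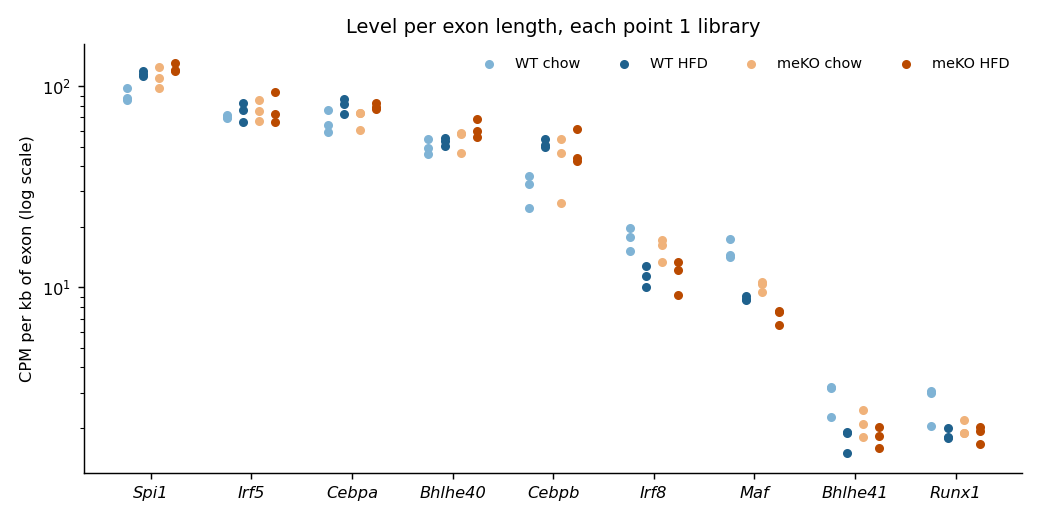
Level of each gene per library, in TMM-scaled CPM per kilobase of exon on a log axis, with 1 point per library coloured by group. Spi1 lies at the top near 110 CPM per kb, Bhlhe41 and Runx1 overlap near 2.1, and the WT chow points of Maf lie above those of the other 3 groups.

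In WT macrophages HFD moved 6 of the 9 factors at an adjusted p under 0.05, in both directions. Spi1 and Cebpb rose, against a background of 9.5% of all genes called higher, and Runx1, Irf8, Maf and Bhlhe41 fell, against 11.8% called lower. Cebpa, Irf5 and Bhlhe40 did not pass. The same 6 genes were those whose WT chow and WT HFD values did not overlap, where 19.4% of all genes were entirely higher and 19.9% entirely lower on HFD. In meKO macrophages none of the 9 passed for diet (0.105% of all genes were called in either direction). The interaction of genotype and diet, which tests the difference between both diet effects, called none of them either (0.0162% of all genes), so a diet effect confined to WT is not shown. Averaged over genotypes, diet changed 7 of the 9: Spi1, Cebpa and Cebpb were higher (14.9% of all genes were) and Runx1, Irf8, Maf and Bhlhe41 lower (15.3%). The 4 that fell have the 4 longest exon lengths of the 9, from 6720 bases for Bhlhe41 to 12025 for Runx1, and those that rose are among the shortest, from 1504 bases for Cebpb to 2695 for Spi1. After the length and GC correction, which called 16.7% of all genes for diet in WT and 25.7% for diet averaged, Spi1, Irf8, Maf and Bhlhe41 passed in WT, and these 4 with Cebpa on average. Without WT chow replicate 1, WT chow replicate 2, WT HFD replicate 1 or WT HFD replicate 3, only Maf of the 9 passed in WT, where 1.05%, 2.59%, 3.73% and 0.778% of all genes were called. Without WT HFD replicate 2 the 4 falls passed and neither rise did (13.6% of all genes). Without both WT chow replicates 1 and 2, 1 library is left in that group, and only effect sizes are given. The log2 difference in WT was then -0.68 ± 0.14 for Maf, -0.42 ± 0.21 for Irf8 and -0.37 ± 0.21 for Bhlhe41. It was -0.13 ± 0.16 for Runx1, 0.24 ± 0.15 for Spi1 and 0.544 ± 0.335 for Cebpb. Averaged over genotypes, Maf was at -0.59 ± 0.08.

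**Figure D2:**
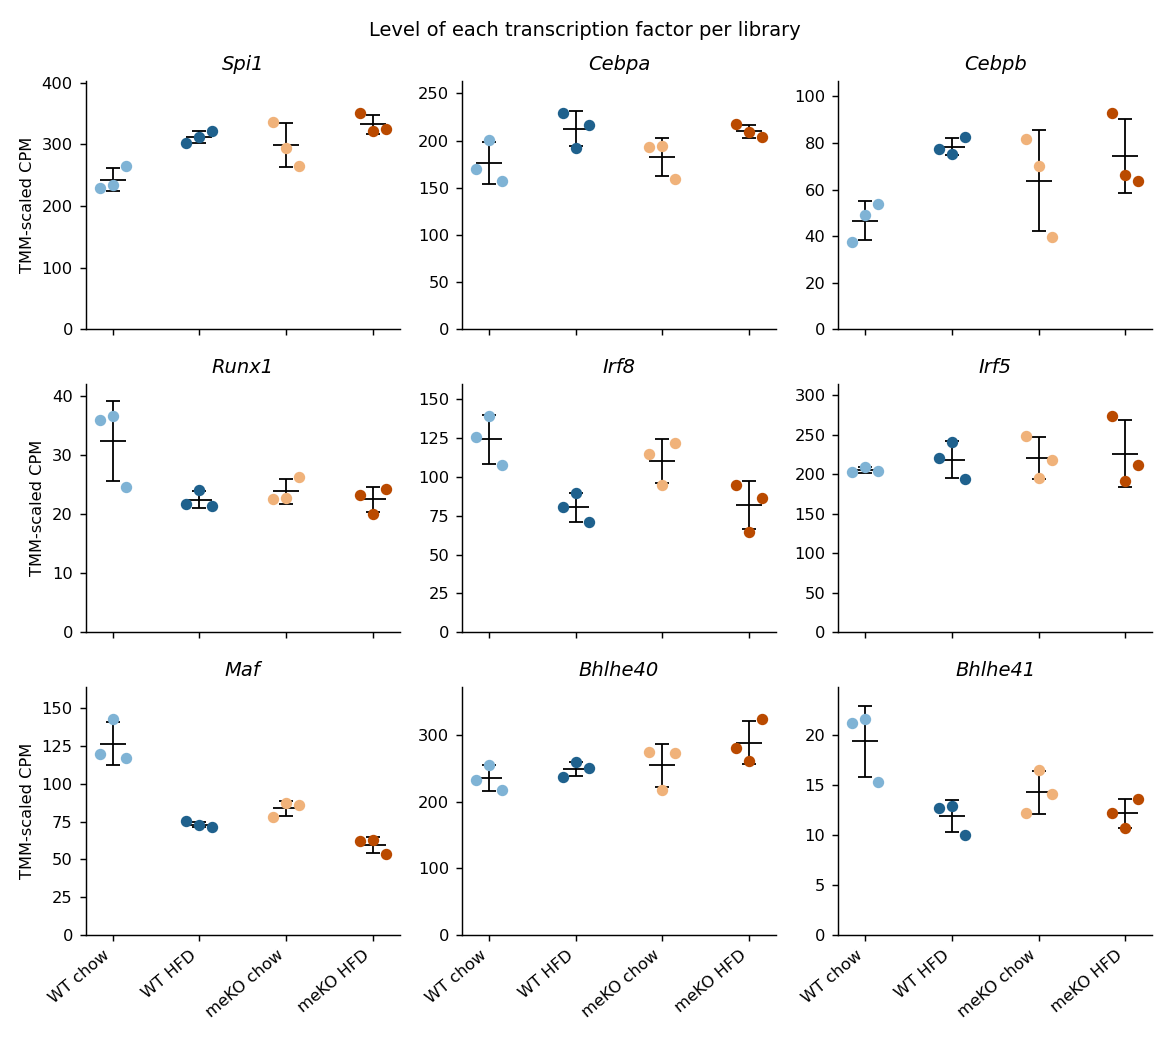
TMM-scaled CPM of each gene in each library, by group, on axes that start at 0; points are libraries, the long bar is the mean and the whiskers are 1 SD (n = 3). The Maf points separate WT chow (117 to 143 CPM) from WT HFD (71.3 to 75.1 CPM), and the Irf5 groups overlap throughout.

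Spi1 stood at 229.7, 234 and 264 CPM in the WT chow libraries, and HFD brought 303, 311 and 321 CPM. In meKO it stood at 336, 295 and 264 CPM with chow and at 350.1, 322 and 325 CPM with HFD. WT chow was thus the lowest group, below every WT HFD library, and meKO chow spanned the gap between them. HFD raised Spi1 in WT with a log2 fold change of 0.36 ± 0.11 (SE; adjusted p = 0.0318), or 1.28-fold, and the value was 0.38 ± 0.08 after the length and GC correction (adjusted p = 0.0146). With library totals in place of TMM the rise in WT was 0.28 ± 0.10 and did not pass (adjusted p = 0.0653). In meKO the log2 difference was 0.16 ± 0.11 (adjusted p = 0.464). Spi1 spans chr2:91082390-91115756 on the plus strand (GRCm38, Entrez 20375).

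Other ETS family genes share PU.1's DNA-binding domain. For this and each later list, the background for diet in WT is 9.5% of all genes called higher and 11.8% called lower. After the length and GC correction 16.7% of all genes were called in either direction. Of 17 listed and present, 0 rose and 6 fell with HFD in WT, namely Elf4, Ets1, Elf2, Fli1, Elk3 and Etv6, with a median log2 difference of -0.43 over the 17 against -0.03 over all genes. Elf4, which restrains proliferation of lymphocytes, fell by 0.75 on the log2 scale (SE 0.17; adjusted p = 0.0165), from a mean of 51.8 to 30.8 CPM. Ets1, better known from lymphocytes, changed by -0.80 ± 0.19 (adjusted p = 0.0198), at 8.57 and 4.92 CPM. With the length and GC correction Elf4 and Fli1 still fell, Erf, an ETS repressor, rose, and the median was -0.23. None of the 17 was called in meKO for diet.

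Cebpb, the C/EBP factor that activates inflammatory and emergency myeloid genes, had the largest rise of the 9. It stood at 37.3, 48.9 and 53.7 CPM in WT on chow and at 77.2, 75.4 and 82.3 CPM in WT on HFD. In meKO the values were 81.8, 70.1 and 39.6 CPM on chow and 92.6, 66.4 and 63.8 CPM on HFD. The WT groups lay well apart, while 2 of the 3 meKO chow libraries were already near the WT HFD level. The log2 fold change was 0.75 ± 0.23 in WT (adjusted p = 0.0346), or 1.68-fold, and 0.22 ± 0.22 in meKO (adjusted p = 0.637). The rise in WT fell to 0.53 ± 0.19 after the length and GC correction and did not pass (adjusted p = 0.0774). Cebpb has a single exon (chr2:167688915-167690418, plus strand, Entrez 12608), and 312 of its 1504 bases, or 20.7%, overlap the opposite-strand gene Peds1. The strand setting of the counts is not given in the sources used here, so reads from both genes cannot be told apart. Peds1 itself had a log2 difference of -0.21 ± 0.11 for diet in WT (adjusted p = 0.172).

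Cebpa, needed for the first steps of myeloid commitment, stood at 169.8, 200.3 and 157 CPM in WT chow, and at 229, 192 and 217 CPM with HFD. The meKO libraries held 194, 194 and 159 CPM on chow and 217, 209 and 203 CPM on HFD. One WT HFD library fell inside the WT chow range, whereas the meKO groups did not overlap, a pattern shown by 10.3% of all genes in the higher direction. The log2 difference was 0.27 ± 0.12 in WT (adjusted p = 0.104) and 0.20 ± 0.12 in meKO (adjusted p = 0.393), and the mean of both, 0.24 ± 0.08, passed (adjusted p = 0.0453). That call held in 11 of 23 alternatives and was lost with library totals and in 9 of the 12 fits that left out 1 library. Cebpa spans chr7:35119293-35121928, plus strand (Entrez 12606).

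Of the 5 other C/EBP family genes present, 1 rose with HFD in WT and none fell, and none was called after the length and GC correction. The riser was Ddit3, which encodes the stress-response factor CHOP, with a log2 fold change of 0.60 ± 0.17 (adjusted p = 0.0288). A list of 29 myeloid genes known as targets of PU.1 and C/EBP had 5 higher, 3 lower and 21 not called in WT, with a median of 0.10. Over all genes, 9.5% were called higher and 11.8% lower. Lcn2, which encodes the iron-scavenging protein lipocalin-2, had a log2 fold change of 1.91 ± 0.38 (adjusted p = 0.0115) but was scarce, at 0.317 CPM in WT chow and 1.20 CPM in WT HFD. Csf3r, the G-CSF receptor gene, fell by 0.60 (SE 0.14; adjusted p = 0.0171), from 110 to 72.8 CPM. With the correction for length and GC the counts were 4 higher and 1 lower with a median of -0.02, and in meKO none of the 29 was called.

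Runx1, which sets up the hematopoietic program and acts at many PU.1-bound enhancers, stood at 35.9, 36.6 and 24.6 CPM in WT chow. The other groups held 21.8, 24.2 and 21.5 CPM (WT HFD), 22.6, 22.7 and 26.3 CPM (meKO chow) and 23.2, 20.1 and 24.2 CPM (meKO HFD). Only WT chow replicates 1 and 2, the libraries whose deviations followed exon length most, were above 35 CPM, and WT chow replicate 3 lay only 0.39 CPM above the highest WT HFD library. The log2 fold change for diet in WT was -0.53 ± 0.15 (adjusted p = 0.0284), and in meKO the log2 difference was -0.08 ± 0.15 (adjusted p = 0.8). After the length and GC correction the value in WT was -0.21 ± 0.10 and did not pass (adjusted p = 0.149). Without WT chow replicates 1 and 2 it was -0.13 ± 0.16. Runx1 has the longest exons of the 9, 12025 bases (chr16:92601466-92826149, minus strand, Entrez 12394).

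Among 5 RUNX family members and partners, 0 rose and 2 fell with HFD in WT, with a median of -0.56, and none was called after the length and GC correction. Runx2, the osteoblast regulator of the family, fell by 0.88 (SE 0.25; adjusted p = 0.0306), at 6.02 and 3.28 CPM. Cbfa2t2, a corepressor that RUNX1 complexes can recruit, fell by 0.56 (SE 0.18; adjusted p = 0.0412). Cbfb, the partner subunit that all RUNX proteins need, had a log2 difference of -0.07 ± 0.10 (adjusted p = 0.642).

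Irf8 stood at 126, 139 and 108 CPM in WT chow, and at 80.3, 89.9 and 71.3 CPM with HFD. The meKO libraries held 115, 94.7 and 122 CPM on chow and 94.8, 64.8 and 86.4 CPM on HFD. The WT groups were apart, and in meKO the highest HFD library passed the lowest chow library by 0.08 CPM. HFD lowered Irf8 in WT with a log2 fold change of -0.63 ± 0.15 (adjusted p = 0.0203), or 0.648-fold, and the log2 difference in meKO was -0.43 ± 0.15 (adjusted p = 0.252). Averaged over genotypes it was -0.53 ± 0.11 (adjusted p = 0.0074). After the length and GC correction the values were -0.36 ± 0.11 in WT (adjusted p = 0.0457) and -0.36 ± 0.08 on average (adjusted p = 0.0087). Irf8 spans chr8:120736358-120756694, plus strand (Entrez 15900).

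Irf8 and Spi1 are also expressed by B cells and dendritic cells, so the markers of both were read beside them. The summed level of the 8 B cell markers present was 112 to 171 CPM in WT chow, 53.6 to 89.3 CPM in WT HFD, 77.7 to 166 CPM in meKO chow and 56.8 to 114 CPM in meKO HFD. Of these 8, 5 fell with HFD in WT (Ighd, Fcer2a, Cr2 and Ighm among them), Ighm was the most abundant, and the defining factors Pax5 and Ebf1 were not among the listed genes. The 9 dendritic markers summed to 37.7 to 60.2 CPM in WT chow, 24.3 to 34.3 in WT HFD, 28.7 to 52.2 in meKO chow and 30.4 to 45.1 in meKO HFD, with Cd209a the most abundant. Of these 9, Flt3, the cytokine receptor of dendritic progenitors, fell in WT. Both lists moved in the direction of Irf8 in WT, and their part in its fall was not tested. In these bulk libraries fewer cells of a type and less RNA per cell cannot be told apart.

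Irf5 was not called in any contrast. It stood at 203, 209 and 204 CPM in WT chow and 220.5, 241 and 194 CPM in WT HFD. The meKO values were 248, 195 and 218 CPM on chow, with 273, 192 and 212 CPM on HFD. All groups overlapped, and the spread within meKO HFD (SD 42.4 CPM) was larger than any difference between group means. The log2 difference for diet was 0.09 in WT (95% interval -0.18 to 0.36; adjusted p = 0.646) and 0.04 in meKO (-0.23 to 0.30; adjusted p = 0.915). Of its 2905 exon bases, 411 (14.1%) overlap the opposite-strand gene Tnpo3 (chr6:29526625-29541871, plus strand, Entrez 27056). Tnpo3 had a log2 difference of -0.17 ± 0.12 for diet in WT (adjusted p = 0.3).

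Of the 6 other IRF genes present, 2 rose and 1 fell with HFD in WT, also after the length and GC correction. Irf7, the amplifier of type I interferon genes, rose from a mean of 45.7 to 78.6 CPM (log2 fold change 0.78 ± 0.17, adjusted p = 0.0134). Irf3, which starts the interferon response, rose from 37.5 to 52.0 CPM (0.47 ± 0.11, adjusted p = 0.02). Irf2, a repressor of interferon-stimulated genes, was the one that fell. Among 12 genes known as targets or partners of IRF5 and IRF8, 1 rose and 2 fell. Ciita, the master regulator of MHC class II, fell from 11.1 to 3.02 CPM in WT, with a log2 fold change of -1.88 ± 0.27 (adjusted p = 0.00308), and stood at 5.06 and 2.66 CPM in meKO (-0.92 ± 0.27, adjusted p = 0.188). Tlr9, the receptor for CpG DNA, changed from 6.81 to 1.20 CPM (-2.51 ± 0.38, adjusted p = 0.00489) in WT. B cells and dendritic cells express Ciita and Tlr9 too, and the part of their markers was not tested here either.

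Maf gave the most regular pattern of the 9. The WT chow libraries held 119.7, 143 and 117 CPM, and with HFD the WT level was 75.1, 72.6 and 71.3 CPM. In meKO the values were 78.3, 87.4 and 85.9 CPM with chow, against 62.0, 63.1 and 53.4 CPM with HFD. WT chow was above every other library, meKO HFD was below every other library, and WT HFD lay below meKO chow without overlap. Maf was the only one of the 9 whose groups did not overlap in all 4 simple contrasts. Each contrast taken singly, groups lay apart in the lower direction for 9.38% of all genes for diet in meKO. The single shares were 8.28% for genotype on chow and 4.85% for genotype on HFD. The share of all genes that were apart in all 4 contrasts together was not counted, so how unusual the joint pattern is remains unknown.

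HFD lowered Maf in WT to 0.577 of its chow level, with a log2 fold change of -0.79 ± 0.11 (adjusted p = 0.00287), rank 16 of 12339 by p. The value was -0.56 ± 0.10 after the length and GC correction (adjusted p = 0.0075). It was -0.68 ± 0.14 without WT chow replicates 1 and 2, which leaves 1 library in that group. In meKO the log2 difference was -0.49 ± 0.11 (0.71-fold), which missed the threshold at an adjusted p of 0.0983 although it ranked 56 by p. Across both genotypes the fall was 0.64 on the log2 scale (SE 0.08, adjusted p = 0.000837). It passed in every alternative for that contrast that left more than 1 library in each group. The diet effect in meKO minus that in WT was 0.30 ± 0.15 (adjusted p = 0.797), and 0.13 ± 0.14 after the length and GC correction (adjusted p = 0.853).

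By genotype, Maf was at 0.662 of the WT level on chow, with a log2 difference of -0.59 ± 0.11 (adjusted p = 0.0692, rank 14), and at 0.815 on HFD, with -0.30 ± 0.11 (adjusted p = 0.94). The difference on chow was -0.38 ± 0.10 with the length and GC correction (adjusted p = 0.12). Averaged over diets the difference of -0.44 ± 0.08 passed (adjusted p = 0.0356), the only member called for genotype in a contrast where 0.081% of all genes were called lower. It did not pass after the length and GC correction, at -0.31 ± 0.07 (adjusted p = 0.0751), where 0.276% of all genes were called. It was also lost when any of WT chow replicate 2, the 3 WT HFD libraries, the 3 meKO chow libraries, or meKO HFD replicates 2 and 3 was left out. Maf spans chr8:115682942-115707794 on the minus strand (Entrez 17132), with 8241 exon bases.

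A list of 15 genes associated with MAF in resident and alternatively activated macrophages had 7 lower and 1 higher with HFD in WT, and a median of -0.67 against -0.03 over all genes. After the length and GC correction it was 7 lower and 0 higher with the same median, whereas the value of Maf itself was smaller. Cd163, the hemoglobin scavenger receptor gene, fell from 17.9 ± 2.12 to 5.88 ± 1.22 CPM in WT (mean and SD, n = 3), with a log2 fold change of -1.61 ± 0.23 (adjusted p = 0.00349). In meKO it fell from 16.8 ± 4.90 to 5.78 ± 1.39 CPM, with -1.53 ± 0.23 (adjusted p = 0.018). Selenop, which encodes the selenium carrier selenoprotein P, fell from 4770 ± 631 to 2640 ± 232 CPM in WT (-0.85 ± 0.14, adjusted p = 0.00647). F13a1, the transglutaminase gene coagulation factor XIII A, fell from 295 ± 61.0 to 137 ± 32.2 CPM in meKO (-1.10 ± 0.18, adjusted p = 0.0297). In WT, F13a1 fell too (-0.86 ± 0.17, adjusted p = 0.0123), and Mrc1, Stab1, Gas6 and Clec10a were the other genes that fell there. Folr2, the folate receptor beta gene, rose in WT (0.86 ± 0.25, adjusted p = 0.0304) but not after the correction. The complement genes C1qa, C1qb and C1qc, with log2 differences from 0.21 to 0.36 in WT, did not pass.

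**Figure D3:**
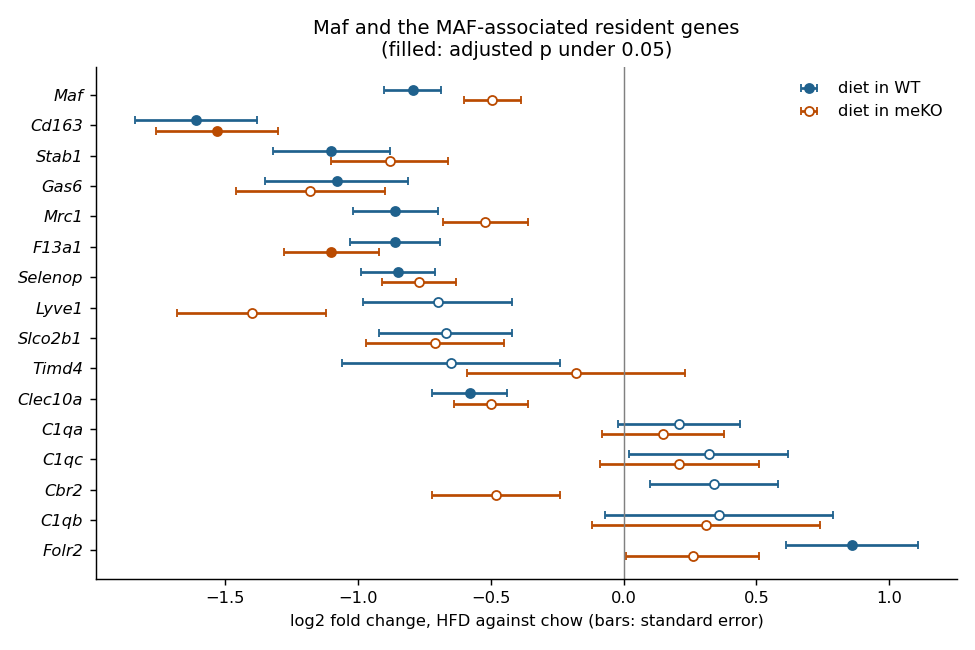
Log2 fold change on HFD against chow for Maf and the 15 listed genes associated with it, in WT and meKO; bars are the SE and filled points have an adjusted p under 0.05. Cd163 lies near -1.61 in WT and -1.53 in meKO, and the C1q genes and Folr2 lie to the right of 0.

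In meKO the same list had 2 lower, Cd163 and F13a1, and none higher, with a median of -0.52 against -0.01 over all genes. None of the 15 was called for genotype on either diet, with medians of -0.05 on chow and -0.09 on HFD. The markers of resident large peritoneal macrophages, cells that share part of this program, summed to 1810 to 2740 CPM in WT chow, 1240 to 1650 in WT HFD, 1070 to 1670 in meKO chow and 937 to 1440 in meKO HFD. Of these 10 markers 2 fell with HFD in WT, Cd93 and Alox15. Fn1, not called for diet in WT, was the most abundant and made up much of these sums. It was at 1230 to 2160 CPM in WT chow, 908 to 1290 in WT HFD, 727 to 1310 in meKO chow and 565 to 1130 in meKO HFD. Gata6, the lineage factor of these cells, was scarce, at 2.20 CPM on chow and 2.96 CPM on HFD in WT and at 1.78 and 3.69 CPM in meKO, and was called higher for diet averaged (0.74 ± 0.19, adjusted p = 0.0141). The part of these markers in the Maf result was not tested. Of 9 further MAF and BACH bZIP genes, 0 rose and 2 fell in WT, with a median of -0.33. Bach1, a heme-regulated repressor, fell by 0.64 (SE 0.19; adjusted p = 0.034), and Nfe2l1, which controls proteasome genes, fell by 0.46 (SE 0.15; adjusted p = 0.0448). Neither passed after the length and GC correction.

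Bhlhe41 was called and Bhlhe40, its close relative, was not. Bhlhe41 stood at 21.2, 21.6 and 15.3 CPM in WT chow, and at 12.7, 12.9 and 10.05 CPM with HFD. The meKO libraries held 12.2, 16.5 and 14.1 CPM on chow and 12.2, 10.7 and 13.6 CPM on HFD. The WT groups were apart and the meKO groups overlapped. The log2 fold change in WT was -0.71 ± 0.17 (adjusted p = 0.0187), and -0.52 ± 0.14 after the length and GC correction (adjusted p = 0.0279). In meKO the log2 difference was -0.23 ± 0.17 (adjusted p = 0.502), and the average over genotypes was -0.47 ± 0.12 (adjusted p = 0.0141). These values rest on 280 to 749 counts per library. Of its 6720 exon bases, 19.0% overlap an opposite-strand transcript, Gm43909 (Bhlhe41 spans chr6:145858243-145865558, minus strand, Entrez 79362).

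Bhlhe40, which in macrophages supports proliferation and represses the interleukin-10 gene, stood at 233, 256 and 218 CPM in WT chow, with 238, 260.0 and 251 CPM in WT HFD. The meKO values were 274, 218 and 273 CPM on chow, with 281, 262 and 325 CPM on HFD. Both chow groups overlapped their HFD groups, while every meKO HFD library was above every WT HFD library, the closest by 1.98 CPM. The log2 difference for diet was 0.08 in WT (95% interval -0.15 to 0.31; adjusted p = 0.63) and 0.18 in meKO (-0.05 to 0.41; adjusted p = 0.45). For genotype on HFD it was 0.21 ± 0.12 (adjusted p = 0.999). Bhlhe40 spans chr6:108660629-108666925, plus strand (Entrez 20893). Of 14 clock genes, several of which are controlled through E-boxes, none was called for diet in WT, and the median was -0.08 (0.10 after the correction).

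**Figure D4:**
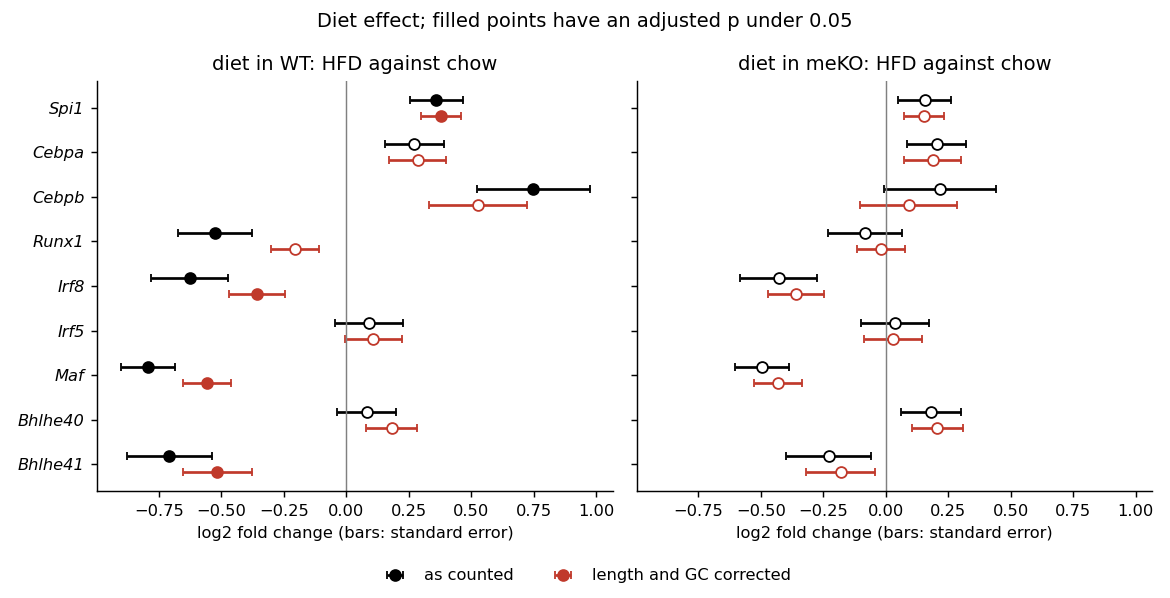
Log2 fold change on HFD against chow for the 9 genes in WT and meKO, as counted and after the length and GC correction; bars are the SE and filled points have an adjusted p under 0.05. In WT, Runx1 moves from -0.53 to -0.21 and loses its call while Spi1 stays near 0.36, and no point is filled in meKO.

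For genotype, none of the 9 was called on chow or on HFD, where 0.081% of all genes were called in either direction in each contrast. Besides Maf, only Spi1 and Bhlhe40 had groups that did not overlap. Spi1 was above WT in meKO on both diets, by 0.03 CPM on chow and 0.82 CPM on HFD between the closest libraries, against 8.87% of all genes entirely higher on chow and 5.45% on HFD. Its log2 difference on chow was 0.30 ± 0.11 (adjusted p = 0.163). Runx1 at -0.44 ± 0.15 (adjusted p = 0.148), Bhlhe41 at -0.44 ± 0.17 (adjusted p = 0.181) and Cebpb at 0.46 ± 0.23 (adjusted p = 0.272) were the other differences over 0.20 in size after Maf. The length and GC correction moved Runx1 to -0.12 ± 0.10 and Bhlhe41 to -0.27 ± 0.14, and without WT chow replicates 1 and 2 they were -0.04 ± 0.16 and -0.10 ± 0.21. In that last fit Spi1 was 0.18 ± 0.15 and Cebpb 0.25 ± 0.33. This comparison and diet in WT share the WT chow libraries. Without WT chow replicate 3, Spi1, Runx1, Maf and Bhlhe41 passed for genotype on chow, in a fit that called 20.6% of all genes. With the length and GC correction and without that library, Spi1 alone passed (adjusted p = 0.0318; 9.63% of all genes). Cebpa, Irf8, Irf5 and Bhlhe40 lay between -0.17 and 0.11 there. On HFD, the 7 genes other than Maf and Bhlhe40 lay between -0.08 and 0.09.

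**Figure D5:**
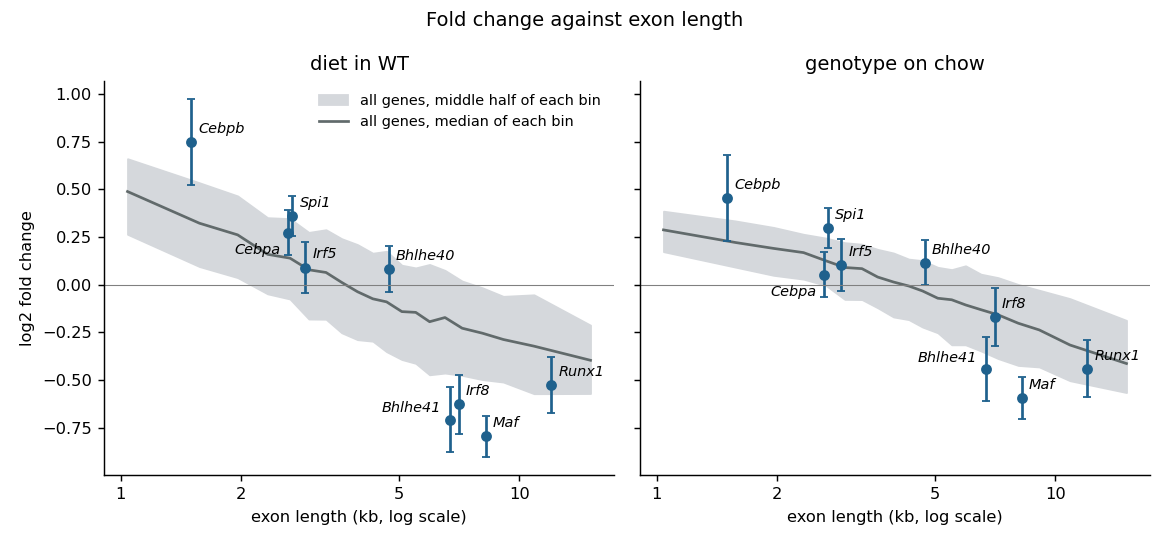
Log2 fold change of the 9 genes against exon length on a log axis, for diet in WT and for genotype on chow; bars are the SE, the line is the median of all genes in bins of length and the band their middle 50%. The band slopes down in both panels; Maf lies below it in both, and Runx1 lies inside it.

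Other regulators of macrophage state, 36 genes present from a list of factors outside these families, had 6 higher and 10 lower with HFD in WT, with a median of -0.21. With the correction it was 5 higher and 4 lower with a median of 0. Nr1h3, which encodes the oxysterol receptor LXR-alpha, rose from 63.6 to 96.0 CPM (log2 fold change 0.59 ± 0.12, adjusted p = 0.0111), and Junb, an AP-1 subunit, from 82.0 to 125 CPM (0.60 ± 0.12, adjusted p = 0.0114). In meKO none of the 36 was called for diet, and no gene of any of the family or target lists was called for genotype on either diet.

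The profiles of the 9 genes over the 12 libraries are given as a description, since the libraries share the length trend. Pearson's r of log2 CPM was 0.89 between Spi1 and Cebpb (0.72 after the length and GC correction) and 0.90 between Runx1 and Bhlhe41 (0.70). It was 0.81 between Runx1 and Irf8 (0.64), which put Irf8 at rank 1370 of 9319 genes for Runx1, and 0.77 between Runx1 and Maf (0.37). It was -0.90 between Spi1 and Maf (-0.84). Among the 9319 genes, Cebpb was at rank 123 for Spi1 (1936 after the correction) and Bhlhe41 at rank 432 for Runx1 (691). In the other direction, Spi1 was at rank 13 for Cebpb (154) and Runx1 at rank 92 for Bhlhe41 (774). Irf5 and Bhlhe40 had weak values with Runx1, at -0.08 and -0.11. Among 9319 genes averaging 5 CPM or more, those most like each factor were Eif4h (0.966) and Aprt (0.964) for Spi1, Col6a1 (0.893) and Serpinb6b (0.884) for Cebpa, and Tmem37 (0.933) and Gsn (0.927) for Cebpb. For Runx1 Sh3pxd2b (0.976) was among them, for Irf8 they were Tbc1d22a (0.987) and Mapk7 (0.982), and for Irf5 Rarg and Adgre5 (both 0.912). Zfp90 (0.960) was among those for Maf. Bhlhe40 was most like Ttll1 (0.834) and Ezr (0.819), and Bhlhe41 most like Csnk2a1 (0.980) and Ubp1 (0.955). None of the 18 genes so chosen was among the most alike after the length and GC correction.

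The markers of other cells in the lavage were read in the same way. Mesothelial and fibroblast markers summed to 53 to 93.6 CPM in WT chow, 97 to 143 in WT HFD, 53 to 98.4 in meKO chow and 115 to 146 in meKO HFD, with Dcn the most abundant. Of these 12, 3 rose in WT, namely Dcn, Krt19 and Krt8, in the direction of Spi1 and Cebpb, and their part was not tested. The 6 neutrophil markers present, led by Csf3r, summed to 124 to 137 CPM in WT chow, 94.7 to 99.6 in WT HFD, 123 to 145 in meKO chow and 116 to 126 in meKO HFD. Of these 6, 2 rose and 2 fell with HFD in WT, and their part in the results was not tested. Ly6g and the granule genes Mpo, Elane, Camp and Ngp were not among the listed genes. S100a9, which encodes a calprotectin subunit, was called higher in meKO on both diets. T and NK cell markers stayed between 11.3 and 25.9 CPM in sum, with Klrb1c on top, and eosinophil and mast cell markers between 113 and 385 CPM, led by Cma1.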

How the data were processed

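Whole-number read counts were deposited by the authors in 1 table, with 1 row per gene (Entrez identifier and symbol) and 1 column per library; the submitters' processing notes name the build mm10 and DESeq2, while the aligner, counting tool and strand setting are not given in the sources used here. All sample columns matched a sample title (0 were left over), and totals cover the listed genes only. A gene that is not listed was not analysed here. Groups came from the titles; replicate numbers follow sample order and pair nothing.

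The test was that of edgeR 4.0.16, run in R 4.3.3 (TMM factors, filterByExpr, which kept all 12339 genes, robust quasi-likelihood F test, two-sided) in 1 model of 4 group means, with 7 contrasts. Adjusted p is Benjamini-Hochberg's over all genes, and a gene is called when it is under 0.05. SE is the size of a log2 fold change divided by the square root of F. Intervals are 1.96 SE to each side, which is narrower than the F test implies. CPM values are TMM-scaled. Script and fit were tested on simulated counts.

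Exon length and GC content came from GENCODE M21 on GRCm38, matched by Entrez identifier for 93.5% of genes. The correction fitted, per library, splines of 5 degrees of freedom on each as an offset. Other settings tried were library totals or median-of-ratios factors, no low-count filter or one of 10 counts in each library, DESeq2 1.42.0, voom from limma 3.58.1 with and without quality weights, dispersions without robust fitting, the 2 groups alone, and each library left out. Leaving out WT chow replicates 1 and 2 together, and the correction without WT chow replicate 3, were chosen after seeing the data.

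Genes named are the 9 factors, the 2 genes most like each, up to 2 called genes per family or target list and simple contrast with the smallest p, the most abundant marker of each cell list, and Prkce and Lyz2. Further genes of the lists, Peds1 and Tnpo3 were named after their values were seen. The 9 factors and all lists were chosen with earlier results of these data known. Values of some genes that this rule names are not reported here.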

Additional observations from a re-analysis of the deposited data

How the results depend on the processing

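Of the 9 factors, 4 to 6 were called for diet in WT under the other scalings, filters, tools and the length and GC correction, against 6. These fits called 16.7% to 51.7% of all genes, against 21.3%. Leaving out 1 library gave 1 to 6, in fits that called 0.778% to 39.9% of all genes. With the correction and without WT chow replicate 3 there were 3 (26.2%). With both WT chow replicates 1 and 2 left out, Maf was at -0.68 ± 0.14 and Runx1 at -0.13 ± 0.16. For diet in meKO, DESeq2 and voom with quality weights each called 1 (Maf; 1.83% and 4.23% of all genes), against 0. For genotype on chow, DESeq2 called 1 (4.56% of all genes), quality weights 4 (33%) and the correction without WT chow replicate 3 1 (9.63%), against 0 (0.081%). Leaving out 1 library gave 0 to 4 there (0.0162% to 20.6%). Quality weights called 1 for genotype on HFD (Maf; 1.17%) and 1 for the interaction (Runx1; 3.19%), where edgeR called 0. For diet averaged, against 7 (30.2% of all genes), library totals gave 4 (30.4%) and single libraries left out 3 to 6 (15.9% to 43.2%). The correction without WT chow replicate 3 gave 4 (32.3%). With both WT chow replicates 1 and 2 left out, Maf was at -0.59 ± 0.08. For genotype averaged, against 1 (0.17%), quality weights gave 3 (31.1% of all genes), the correction 0 (0.276%) and single libraries left out 0 to 2 (0.0648% to 11.3%). With both WT chow replicates 1 and 2 left out, Maf was at -0.39 ± 0.08 for genotype averaged. The cause was not tested. Maf for diet in WT and Irf8 for diet averaged passed in every alternative that left more than 1 library in each group. The fit without a low-count filter called the same number of genes as the main fit, since the filter removed none. For diet in WT, leaving out a meKO library removes no library of the contrast.

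Directions reversed only for differences that did not pass: Bhlhe40 for diet in WT was -0.006 with library totals (which moved the median of all genes from -0.03 to -0.12 and the share of calls that were higher from 44.5% to 31.3%), and Irf5 for diet in meKO was -0.01 with quality weights. With single libraries left out, Irf5 ran from -0.124 to 0.141 for diet in meKO and from -0.017 to 0.114 for diet averaged, and Cebpb from -0.031 to 0.429 for diet in meKO. Over all genes, diet in WT called 2634 genes, 6384 with quality weights, and from 96 (without WT HFD replicate 3) to 4921 (without WT chow replicate 3) with 1 library left out. The length and GC correction called 57.2% of its genes higher. Of the 18 genes most like the factors, 3 were shared with Spearman's rho and 0 after the correction. No paired analysis was possible because the labels carry no replicate numbers that tie samples across groups.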
